A study of Mus musculus with 6 samples.

Results

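Chemokine receptors are surface receptors, coupled to inhibitory G proteins, that turn a gradient of a secreted chemokine into directed migration. The genes described here are Cxcr3, Cxcr4, Cxcr5, Cxcr6, Ccr2, Ccr4, Ccr8 and Ccr9, 8 of the 18122 rows of the expression table, taken by gene symbol with no use of their values. On CD8+ T cells the set of these receptors changes with activation: receptors for lymphoid tissue and bone marrow give way to receptors for inflamed tissue, of which CXCR3 is the best known on effector and memory cells. CXCR3 binds the interferon-induced chemokines CXCL9, CXCL10 and CXCL11, and its gene is a known target of the T-box factor T-bet.

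The libraries are bulk RNA-seq of mouse CD8+ T cells from lymph nodes of Dusp2-/- mice and of WT mice. Dusp2 encodes a phosphatase of MAP kinases. All cells, of both genotypes, had been stimulated for 18 h on anti-CD3 antibody (1 µg/mL) in the presence of IL-4 (20 ng/mL), IFN-α (50 ng/mL) and anti-CD28 antibody (1 µg/mL), a culture that the labels give as one for inducing virtual memory T cells, after which they were sorted by level of CD44, a surface glycoprotein. The groups were Dusp2-/- CD44hi (2 libraries), WT CD44hi (2 libraries), Dusp2-/- CD44lo (1 library) and WT CD44lo (1 library), where CD44hi is the fraction the labels call super-high. The labels give no age, strain or sex, do not say whether the knockout is confined to T cells or whether libraries came from separate mice, and in one protocol field name Cd4-Cre Rpa1fl/fl mice in place of Dusp2-/- mice. P-values therefore measure only the spread between these libraries, which may be technical.

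The targeted gene followed the genotype labels. FPKM, the unit used here, counts fragments per kilobase of a gene's length, scaled by the size of the library. Dusp2 stood at 0 and 0.0283 FPKM in Dusp2-/- CD44hi and at 0 FPKM in Dusp2-/- CD44lo, against 82.6 and 83.9 FPKM in WT CD44hi and, in WT CD44lo, 116 FPKM. Rpa1 stood at 27.4 FPKM or more in all 6 libraries. Cd44 followed the sort, with 65.3 to 79.9 FPKM in the 4 CD44hi libraries against 1.33 FPKM in Dusp2-/- CD44lo and 1.43 FPKM in WT CD44lo. Reads per library, recovered from the FPKM steps, were 23656147 in Dusp2-/- CD44lo and between 43136130 and 56237742 in the other 5. Of the T cell markers, Cd3e, Cd8a and Cd8b1 summed to between 682 and 1033 FPKM, while Cd4 and Foxp3 together stayed at or below 0.21 FPKM. Myeloid markers (3 of 5 in the table) summed to at most 0.212 FPKM, dendritic cell markers (3 of 4) to at most 1.67 FPKM, nearly all of it Itgax, and the NK cell and erythroid markers measured to at most 0.0466 and 0.121 FPKM. Pecam1, an endothelial marker that naive T cells also express, made up nearly all of the stroma sum of 5.21 to 14.4 FPKM.

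One member was below 1 FPKM in every library, Ccr2. Cxcr5 was below 1 FPKM in both CD44lo libraries and Ccr8 in the Dusp2-/- CD44lo library, and the other 5 members were above 1 FPKM in all 6 libraries. Tests were run on the 9691 genes that averaged 1 FPKM or more, a limit that 7 of the 8 members passed. Cxcr5 passed with a mean of 1.35 FPKM only through its CD44hi level, so that its CD44 step had to differ.

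**Figure D1:**
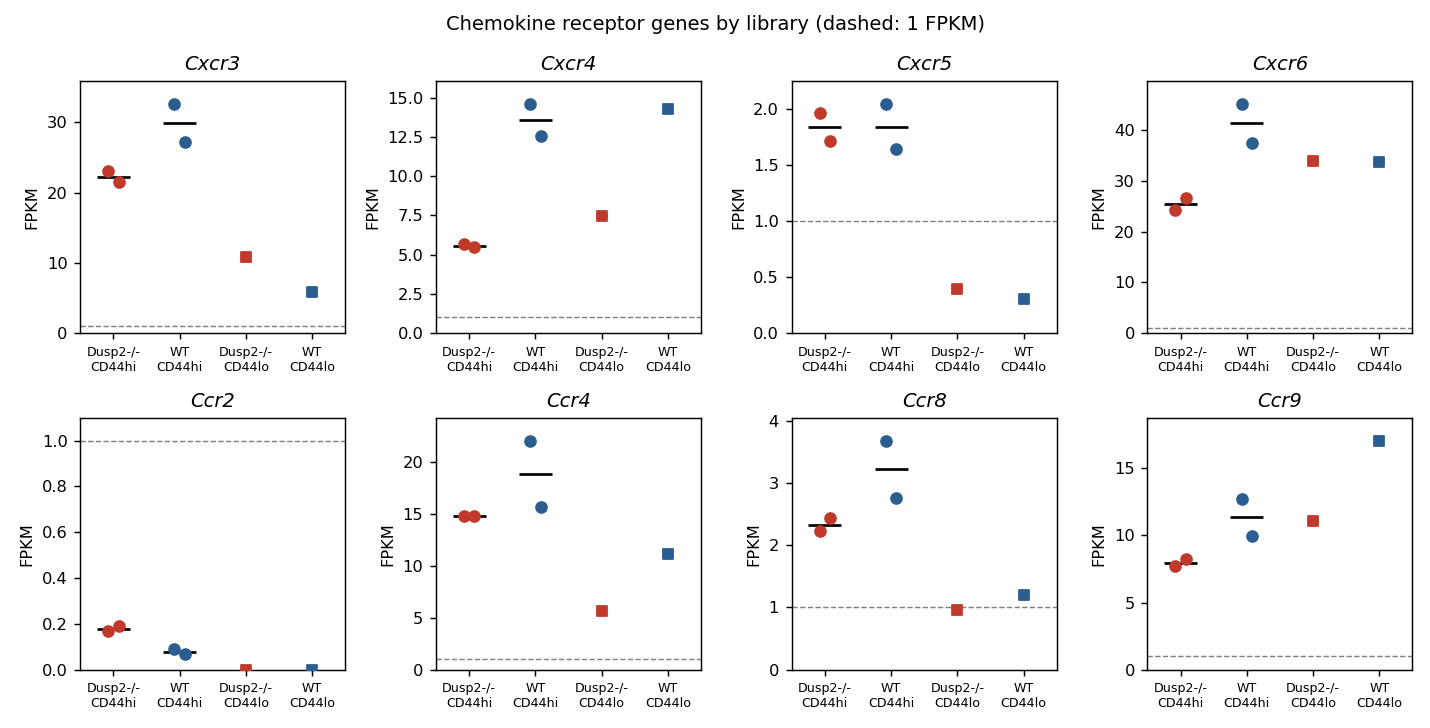
FPKM of each receptor gene (vertical axes, linear, each from 0) in every library, with circles for CD44hi, squares for CD44lo, black bars for the mean of 2 libraries and a dashed line at 1 FPKM. Ccr2 lies under the line in all 6 libraries, Cxcr4 is lower in all 3 Dusp2-/- than in all 3 WT libraries, and Cxcr3 is higher in CD44hi than in CD44lo in both genotypes.

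The promoters of the members on which the results turn most are shown for orientation: Cxcr3, whose CD44 step differed between genotypes, Cxcr4, with the largest genotype difference in CD44hi, and Ccr4, the only member with a match among the motifs searched. Each is the stretch of 250 bases before the RefSeq start of transcription in GRCm38.p6, read 5′ to 3′ on the gene's strand, and capitals mark a motif match.
Cxcr3, chrX:101734148-101734397, minus strand: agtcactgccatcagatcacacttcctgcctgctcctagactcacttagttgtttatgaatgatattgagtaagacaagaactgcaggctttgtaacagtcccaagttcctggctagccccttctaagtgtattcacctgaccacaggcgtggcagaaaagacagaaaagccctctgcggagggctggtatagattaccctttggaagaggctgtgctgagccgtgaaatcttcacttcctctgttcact
Cxcr4, chr1:128592300-128592549, minus strand: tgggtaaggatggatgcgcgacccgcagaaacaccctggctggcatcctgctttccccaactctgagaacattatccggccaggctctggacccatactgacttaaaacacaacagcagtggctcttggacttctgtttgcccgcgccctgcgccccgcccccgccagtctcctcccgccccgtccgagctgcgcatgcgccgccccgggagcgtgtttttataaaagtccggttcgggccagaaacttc
Ccr4, chr9:114496545-114496794, minus strand: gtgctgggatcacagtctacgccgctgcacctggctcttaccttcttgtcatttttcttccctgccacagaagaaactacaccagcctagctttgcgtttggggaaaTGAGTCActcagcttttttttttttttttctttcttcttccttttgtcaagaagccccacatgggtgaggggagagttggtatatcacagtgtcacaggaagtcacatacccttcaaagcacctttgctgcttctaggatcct
The motifs, searched on both strands in the 7 members with a RefSeq promoter entry, were GGTGTGA (T-box), TTC and GAA parted by 4 bases (STAT6), TGANTCA (AP-1) and GGGNGTG (KLF). They occur in 3.33%, 5.85%, 6.75% and 26.1% of all 32851 RefSeq promoter windows of this length. The single match was TGAGTCA, the AP-1 letters, in the Ccr4 window, 143 bases before the start. A match is a run of letters and no evidence of binding, and a window without a match says nothing about the factor.

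The levels were ordered in FPKM, which are per length, so the order and the shares below rest on the merged exon lengths. These were 10260 bases for Ccr9 and 6760 for Ccr2, against 1731 for Cxcr3, 1808 for Cxcr4 and 1931 for Cxcr6. In reads, Ccr9 was above Cxcr6 in every library, with 8915 against 3321 in WT CD44lo. In Dusp2-/- CD44hi the order was Cxcr6 (25.4 ± 1.63 FPKM), Cxcr3 (22.2 ± 1.09), Ccr4 (14.8 ± 0.0063), Ccr9 (7.97 ± 0.355), Cxcr4 (5.57 ± 0.114), Ccr8 (2.33 ± 0.146), Cxcr5 (1.84 ± 0.181) and Ccr2 (0.179 ± 0.0163; SD, n = 2), and no neighbours overlapped. In WT CD44hi it was Cxcr6 (41.3 ± 5.42 FPKM), Cxcr3 (29.9 ± 3.81), Ccr4 (18.8 ± 4.52), Cxcr4 (13.6 ± 1.42), Ccr9 (11.3 ± 1.96), Ccr8 (3.22 ± 0.647), Cxcr5 (1.85 ± 0.288) and Ccr2 (0.0781 ± 0.0145; SD, n = 2), where the libraries of Cxcr4 and Ccr9 overlapped. In the CD44lo libraries Cxcr6 also led, and Ccr9 came next. Ccr9 and Cxcr3 could not be ordered in Dusp2-/- CD44lo, with 95% exact Poisson intervals of 10.7 to 11.5 and 9.86 to 11.9 FPKM. Such intervals cover counting error only.

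As shares of the summed FPKM of the 8 genes, Cxcr6 made up 30.4% and 32.8% in Dusp2-/- CD44hi, 34.0% and 34.9% in WT CD44hi, 48.3% in Dusp2-/- CD44lo and 40.4% in WT CD44lo. Cxcr3 made up 28.9% and 26.6% in Dusp2-/- CD44hi, 24.5% and 25.4% in WT CD44hi, 15.4% in Dusp2-/- CD44lo and 7.04% in WT CD44lo. Within CD44hi the Cxcr3 share was thus slightly larger in both Dusp2-/- libraries than in both WT libraries, although its level was lower there. The 8 genes summed to 79.7 and 80.8 FPKM in Dusp2-/- CD44hi, against 133 and 107 FPKM in WT CD44hi, and to 70.3 FPKM in Dusp2-/- CD44lo against 83.6 FPKM in WT CD44lo. In these bulk libraries, fewer cells expressing a gene and less RNA per cell cannot be told apart.

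**Figure D2:**
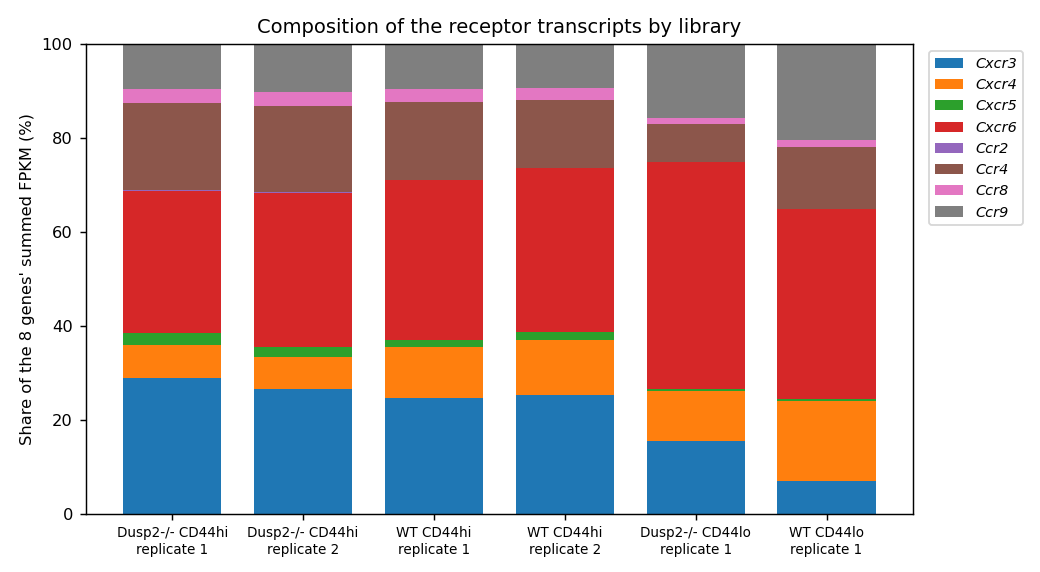
Share (%, linear axis) of each of the 8 genes in their summed FPKM, 1 bar per library. Cxcr6 and Cxcr3 are the largest segments of each CD44hi bar, and the Cxcr3 share is smallest in WT CD44lo at 7.04%.

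Cxcr3, the receptor for interferon-induced chemokines, was measured at 23.0 and 21.5 FPKM in Dusp2-/- CD44hi, against 32.6 and 27.2 FPKM in WT CD44hi. It was at 10.8 FPKM in Dusp2-/- CD44lo, against 5.89 FPKM in WT CD44lo. The Dusp2-/- libraries thus lay below WT in CD44hi, without overlap, and above WT in CD44lo. The CD44lo values rest on 448 reads in Dusp2-/- and 519 reads in WT, with 95% exact Poisson intervals of 9.86 to 11.9 FPKM and 5.39 to 6.42 FPKM.

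Within each genotype Cxcr3 was higher in CD44hi than in CD44lo. The step was 0.97 log2 units in Dusp2-/- (SE 0.12, limma adjusted p = 0.0015), a ratio of 2.05 between the FPKM means, and 2.16 log2 units in WT (SE 0.12, limma adjusted p = 0.000106), a ratio of 5.08. These differences are of log2(FPKM + 1) values, a scale on which changes of low genes look smaller than they are, and adjusted p-values are Benjamini-Hochberg values over the 9691 genes. The lone CD44lo libraries are assumed in the fit to vary like the CD44hi pairs.

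The genotype difference of Cxcr3 was -0.41 in CD44hi and 0.78 in CD44lo, where it rests on 1 library per genotype. The difference of the Cxcr3 steps, which is the first less the second, was itself tested, as Dusp2-/- minus WT. It was -1.19 log2 units (SE 0.17, 95% interval -1.59 to -0.79, limma adjusted p = 0.0323), so that the step was smaller in Dusp2-/-. Of all genes tested, 4.22% passed this test (2.73% higher and 1.49% lower), and Cxcr3 was the only one of the 7 tested members to do so. The difference kept its sign in every setting run, from -1.32 to -0.96, but did not pass with the trend on gene length removed (-0.96, limma adjusted p = 0.0726) nor with no filter on low values (limma adjusted p = 0.14). With libraries rescaled to equal totals the genes called split into 379 higher and 43 lower, against 265 and 144 as reported, and Cxcr3 was at -1.12 (limma adjusted p = 0.0355). Across genes this difference had a Spearman rho of 0.48 with gene length, a description over genes that share these 6 libraries, against 0.34 for the step in Dusp2-/- and -0.092 for the step in WT. It was 0.32 for WT CD44hi replicate 1 minus replicate 2 as well, and -0.0034 for the Dusp2-/- CD44hi pair. The merged exons of Cxcr3 come to 1731 bases.

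**Figure D3:**
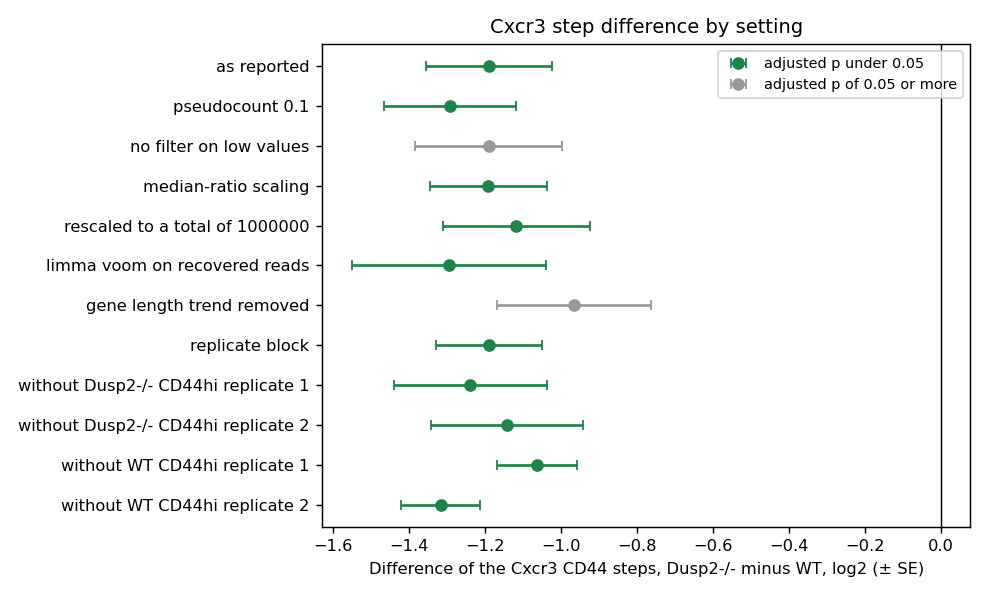
Difference of the Cxcr3 CD44 steps, Dusp2-/- minus WT, on the log2 scale (horizontal axis) with its SE, as reported and in each other setting (rows). Every point is below 0, and the grey points are those without a call, with no filter and with the gene length trend removed.

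Cxcr3 lies on the X chromosome, and a marker of the inactive X chromosome differed between the fractions in Dusp2-/-. Xist, the RNA that coats it, was at 15.1 and 15.5 FPKM in the Dusp2-/- CD44hi libraries and at 0 FPKM in Dusp2-/- CD44lo, against at most 0.00641 FPKM in the 3 WT libraries. The Y-linked Ddx3y was at 10.3 to 13.6 FPKM in all 6 libraries. Y-linked Eif2s3y was at 13.4 and 13.8 FPKM in Dusp2-/- CD44hi, against 18.4 FPKM in Dusp2-/- CD44lo and 18.5 to 20.3 FPKM in WT. Kdm5d was at 1.45 and 1.70 FPKM in Dusp2-/- CD44hi, against 1.85 to 2.06 FPKM in the other libraries, while Uty overlapped. The 300 X-linked genes tested had a median step of 0.13 log2 units in Dusp2-/- and 0.063 in WT, and a median difference of steps of 0.00092, against -0.0082 for all genes tested. The Dusp2-/- CD44hi libraries, set apart by Xist, enter every genotype comparison in CD44hi and every step in Dusp2-/-, for all members. The part of this in the Cxcr3 result and in those of the other members was not tested, and the sex of the mice is not labelled. The genes were chosen after their values were seen.

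Cxcr4, the receptor for CXCL12 that holds lymphocytes in bone marrow and guides them in lymphoid tissue, had the largest genotype difference of the tested members in CD44hi. It was at 5.65 and 5.49 FPKM in Dusp2-/- CD44hi, against 14.6 and 12.6 FPKM in WT CD44hi. It was at 7.48 FPKM in Dusp2-/- CD44lo, against 14.3 FPKM in WT CD44lo. All 3 Dusp2-/- libraries lay below all 3 WT libraries, which held for 10.6% of all genes tested and for no other member.

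In CD44hi, Cxcr4 fell by 1.15 log2 units (SE 0.087, limma adjusted p = 0.000939), a mean in WT that was 2.44 times that in Dusp2-/-. In CD44lo the difference of the single libraries was -0.85, with no test. The CD44 step was -0.37 in Dusp2-/- (SE 0.11, limma adjusted p = 0.0334) and -0.068 in WT (limma adjusted p = 0.666), and the steps were not shown to differ (-0.30, 95% interval -0.66 to 0.06, limma adjusted p = 0.239). The call in Dusp2-/- was lost with either Dusp2-/- CD44hi library left out (limma adjusted p = 0.0741 and 0.105), with libraries rescaled to equal totals (0.133), in a fit on recovered reads (0.111) and with the length trend removed (0.302).

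Cxcr6, the receptor for CXCL16 found on tissue-resident and effector CD8 T cells, had the highest FPKM of the members in every library. It was at 24.2 and 26.5 FPKM in Dusp2-/- CD44hi, against 45.1 and 37.5 FPKM in WT CD44hi. It was at 34.0 FPKM in Dusp2-/- CD44lo, against 33.8 FPKM in WT CD44lo, with Poisson intervals that overlap (32.3 to 35.7 and 32.6 to 34.9 FPKM). The CD44hi libraries of the genotypes did not overlap, and no CD44lo difference was detectable at this depth between the single libraries.

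In CD44hi, Cxcr6 fell by 0.68 log2 units in Dusp2-/- (SE 0.099, limma adjusted p = 0.00602). Its CD44 step was -0.41 in Dusp2-/- (SE 0.12, limma adjusted p = 0.0363) and 0.28 in WT (SE 0.12, limma adjusted p = 0.138). The difference of the steps was -0.69 (SE 0.17, 95% interval -1.10 to -0.28, limma adjusted p = 0.0682), which does not pass over all genes tested. With single CD44hi libraries left out, this difference ranged from -0.82 to -0.55. The step in Dusp2-/- was -0.35 without Dusp2-/- CD44hi replicate 1. Its call was lost in the fit on recovered reads (limma adjusted p = 0.0503), with libraries rescaled to equal totals (0.135) and with the length trend removed (-0.23, 0.238).

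Cxcr5, the receptor for CXCL13 that brings B cells and follicular T cells into B cell follicles, was low. It was at 1.97 and 1.71 FPKM in Dusp2-/- CD44hi, against 2.05 and 1.64 FPKM in WT CD44hi, where the genotypes overlap (difference 0.00046, 95% interval -0.28 to 0.28, limma adjusted p = 0.998). It was at 0.39 FPKM in Dusp2-/- CD44lo (31 reads), against 0.306 FPKM in WT CD44lo (52 reads). The step, given as a description for the reason above, was 1.03 log2 units in Dusp2-/- and 1.12 in WT, and the steps were not shown to differ (-0.089, 95% interval -0.57 to 0.39, limma adjusted p = 0.80).

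B cell markers were read beside Cxcr5. Cd79b was at 22.4 and 24.5 FPKM in Dusp2-/- CD44hi against 12.2 and 9.88 FPKM in WT CD44hi, and at 11.2 FPKM in Dusp2-/- CD44lo against 6.92 FPKM in WT CD44lo, while Cd79a was between 0.0727 and 0.379 FPKM. These were the 2 of 4 B cell markers analysed here. Their part in the Cxcr5 values was not tested. Annotated exons of Cxcr5 share 110 bases with Bcl9l on the other strand, and the use of strand in counting is not given in the sources used here, so reads there cannot be told apart.

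Ccr4 and Ccr8 are known from T helper 2, regulatory and skin-homing T cells. CCR4 binds CCL17 and CCL22, and mouse CCR8 binds CCL1. Ccr4 was at 14.8 and 14.8 FPKM in Dusp2-/- CD44hi, against 22.0 and 15.6 FPKM in WT CD44hi. It was at 5.61 FPKM in Dusp2-/- CD44lo, against 11.1 FPKM in WT CD44lo. The Dusp2-/- libraries were the lower ones in both fractions, by a narrow margin from WT CD44hi replicate 2.

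The genotype difference of Ccr4 in CD44hi was -0.31 (SE 0.14, limma adjusted p = 0.153), and its size turned on the WT CD44hi pair. It was -0.54 without WT CD44hi replicate 2 and -0.076 without replicate 1. The spread in these fits came from the Dusp2-/- pair alone, so only sizes are given. In CD44lo the genotype difference was -0.88, with no test. The CD44 step was 1.26 log2 units in Dusp2-/- (SE 0.18, limma adjusted p = 0.00258) and 0.69 in WT (SE 0.18, limma adjusted p = 0.0312). The difference of the steps, 0.57, had the opposite sign to that of Cxcr3 and did not pass (95% interval -0.03 to 1.16, limma adjusted p = 0.188). It was 0.80 without WT CD44hi replicate 1 and 0.33 without WT CD44hi replicate 2.

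Ccr8 was at 2.22 and 2.43 FPKM in Dusp2-/- CD44hi, against 3.68 and 2.76 FPKM in WT CD44hi. It was at 0.963 FPKM in Dusp2-/- CD44lo (27 reads), against 1.20 FPKM in WT CD44lo (72 reads), with Poisson intervals that overlap (0.634 to 1.40 and 0.941 to 1.52 FPKM). The genotype difference in CD44hi was -0.34 (limma adjusted p = 0.0922), and it was -0.49 without WT CD44hi replicate 2 and -0.18 without WT CD44hi replicate 1. The CD44 step was 0.76 log2 units in Dusp2-/- (limma adjusted p = 0.0098) and 0.93 in WT (limma adjusted p = 0.00698).

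Ccr9, the receptor for CCL25 that guides T cells to the small intestine and thymocytes in the thymus, was lower in CD44hi than in CD44lo. It was at 7.71 and 8.22 FPKM in Dusp2-/- CD44hi, against 12.7 and 9.96 FPKM in WT CD44hi. It was at 11.1 FPKM in Dusp2-/- CD44lo, against 17.1 FPKM in WT CD44lo. The Dusp2-/- libraries lay below the WT libraries of the same fraction, without overlap.

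Ccr9 fell by 0.45 log2 units in Dusp2-/- CD44hi (SE 0.11, limma adjusted p = 0.0298), and the CD44lo difference was -0.58, with no test. Its CD44 step was -0.43 in Dusp2-/- (limma adjusted p = 0.0468) and -0.56 in WT (limma adjusted p = 0.0283). Without Dusp2-/- CD44hi replicate 1 the genotype call and the step in Dusp2-/- were both lost (limma adjusted p = 0.0613 and 0.0851), as they were with libraries rescaled to equal totals (0.0555 and 0.147). The annotated exons of Ccr9 span 10260 bases and share 1932 bases with AC165425.1 on the other strand, so its level per length rests on that gene model.

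Ccr2, the receptor for CCL2 known from monocytes and from memory T cells, was low in CD44hi and undetected in CD44lo. It had 64 and 68 reads (0.167 and 0.190 FPKM) in the Dusp2-/- CD44hi libraries, against 26 and 26 reads (0.0884 and 0.0679 FPKM) in WT CD44hi. No read was found in either CD44lo library, where 3 reads would give 0.0186 FPKM in Dusp2-/- and 0.00871 FPKM in WT. The Ccr2 means in CD44hi were 9.61 times this floor in Dusp2-/- and 8.97 times this floor in WT. These ratios are not lower limits of the fold change. The upper ends of the Poisson intervals in CD44lo lay above the floor, at 0.0229 FPKM in Dusp2-/- and 0.0107 FPKM in WT.

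The Dusp2-/- CD44hi libraries were both above both WT CD44hi libraries in Ccr2, with a ratio of 2.29 between the means. The gene did not enter the tests, and with no filter the genotype difference did not pass (0.13, limma adjusted p = 0.0786). That fit says little about Ccr2, since 2 of 18122 genes passed in it for genotype and Cxcr4 did not (limma adjusted p = 0.0631). The myeloid markers summed to 0 FPKM in both Dusp2-/- CD44hi libraries, at most 0.0188 FPKM in WT CD44hi, 0 FPKM in Dusp2-/- CD44lo and 0.212 FPKM in WT CD44lo. The Ccr2 level is uncertain, since the treatment of reads that fit more than 1 gene is not given in the sources used here.

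Counted together, 4 of the 7 tested members fell in Dusp2-/- CD44hi (Cxcr3, Cxcr4, Cxcr6 and Ccr9), none rose and 3 did not pass. Of all genes tested 26.7% passed, 13.8% with a fall and 12.9% with a rise. The median of the members was -0.41 log2 units, against -0.018 over all genes tested. Both Dusp2-/- libraries lay below both WT libraries for 6 of the 7, against 36.2% of all genes. WT CD44hi replicate 1 was above WT CD44hi replicate 2 for all 8 members. The share of all genes with this order was not counted. Across genes this replicate difference had a Spearman rho of 0.32 with gene length. The falls were smaller without WT CD44hi replicate 1 than without replicate 2. They were -0.28 against -0.53 for Cxcr3, -1.05 against -1.25 for Cxcr4, -0.55 against -0.81 for Cxcr6 and -0.29 against -0.62 for Ccr9. The median over all genes was 0.0037 against -0.034. The Cxcr3 call was lost without Dusp2-/- CD44hi replicate 2 (limma adjusted p = 0.0845) and with the length trend removed (0.0887). With libraries rescaled to equal totals, 2 members passed, and the genes called split into 1292 higher and 914 lower, against 1248 higher and 1338 lower as reported. The share of reads from 13 mitochondrial genes was 2.71% and 2.92% in Dusp2-/- CD44hi against 2.13% and 2.02% in WT CD44hi, and 3.77% in Dusp2-/- CD44lo against 2.54% in WT CD44lo. It was higher in Dusp2-/- without overlap within each fraction, and its part in these results was not tested.

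**Figure D4:**
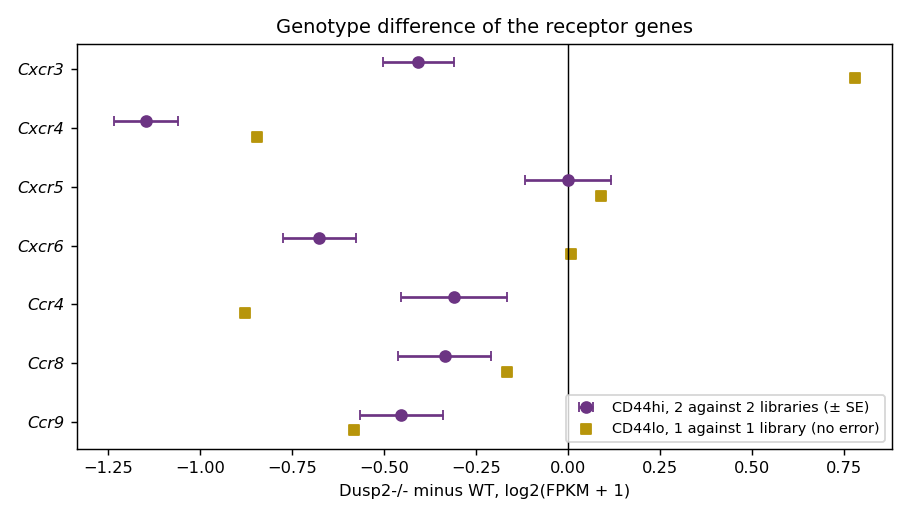
Dusp2-/- minus WT on the log2(FPKM + 1) scale (horizontal axis) for the 7 tested members, with circles and SE for CD44hi (2 against 2 libraries) and squares for CD44lo (1 against 1 library, no error). All CD44hi points except that of Cxcr5 lie below 0, and Cxcr3 has opposite signs in the fractions, -0.41 and 0.78.

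Between the CD44lo libraries, 4 of the 7 members were lower and 3 higher in Dusp2-/-, with a median of -0.17, against 51.6% of all genes lower and 48.4% higher. This rests on 1 library per genotype and has no replicate check. Cxcr3 (0.78) was the highest of the 7 and Ccr4 (-0.88) the lowest.

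Between the fractions, the members split by receptor, and 40.1% of all genes tested passed in Dusp2-/- and 26.1% in WT. Leaving out Cxcr5, whose step had to differ, 3 of 6 members were higher in CD44hi in Dusp2-/- (Cxcr3, Ccr4 and Ccr8) and 3 lower (Cxcr4, Cxcr6 and Ccr9), against 23.6% and 16.5% of all genes tested. In WT the same 3 were higher and Ccr9 was lower, against 15.4% and 10.7% of all genes tested, while Cxcr4 and Cxcr6 did not pass. The medians over the 6 were 0.20 in Dusp2-/- and 0.48 in WT, against 0.048 and 0.053 over all genes. The 3 lower calls in Dusp2-/- were lost with libraries rescaled to equal totals, where the genes called split into 3154 higher and 969 lower against 2285 higher and 1603 lower as reported, and without Dusp2-/- CD44hi replicate 1. In WT, median-ratio scaling gave a split of 1253 higher and 1318 lower genes, against 1490 and 1037 as reported, with the same number of members called in each direction.

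**Figure D5:**
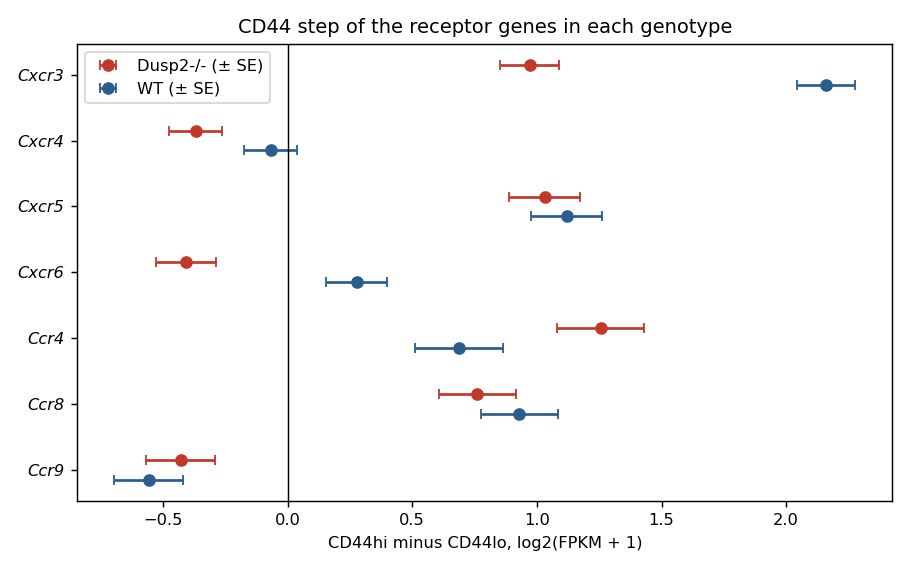
CD44hi minus CD44lo on the log2(FPKM + 1) scale (horizontal axis) for the 7 tested members, with SE, in Dusp2-/- and in WT. Cxcr3, Cxcr5, Ccr4 and Ccr8 lie above 0 in both genotypes and Ccr9 below 0 in both, and the widest gap between genotypes is that of Cxcr3, 0.97 in Dusp2-/- and 2.16 in WT.

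Some genes had patterns close to those of the members over the 6 libraries. Closeness was the root mean square difference of log2(FPKM + 1) values, each gene centred on its own mean, among 6309 genes that averaged 5 FPKM or more. The closest to Cxcr3 were Ptpn5 (0.26), Mir155hg (0.27) and Gzmc (0.28). These 3 were picked for closeness to Cxcr3 over the same 6 libraries, so a pattern shared with it is no separate observation. Gzmc was at 9.50 and 9.60 FPKM in Dusp2-/- CD44hi against 14.2 and 14.5 FPKM in WT CD44hi. In Dusp2-/- CD44lo against WT CD44lo, Gzmc was at 6.94 and 3.998 FPKM, Mir155hg at 12.1 and 8.04, and Ptpn5 at 2.78 and 2.56. Closest to Cxcr4 were Ephx1 (0.076), Mxd4 (0.092) and the MAP kinase phosphatase gene Dusp1 (0.13). Closest to Cxcr6 were Myb (0.065), Clcf1 (0.077) and Tpra1 (0.088), to Ccr4 Dusp4 (0.13), Bhlhe40 (0.14) and Tigit (0.14), and to Ccr9 Kdm3a (0.074), Cep97 (0.082) and Ptk2b (0.10).

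Of the other chemokine receptors listed, Ccr7, the receptor for the lymph node chemokines CCL19 and CCL21, was at 397 and 391 FPKM in Dusp2-/- CD44hi against 565 and 446 FPKM in WT CD44hi, and at 393 FPKM in Dusp2-/- CD44lo against 459 FPKM in WT CD44lo. It was above every member in each library, and its genotype difference in CD44hi did not pass (-0.35, limma adjusted p = 0.0763). Ccrl2, an atypical receptor that binds chemerin, had CD44 steps of -1.21 in Dusp2-/- and -1.39 in WT (limma adjusted p = 0.00258 and 0.00221). Both were named after their values were seen.

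Of 14 ligands of the members, 10 had values and 2 averaged 1 FPKM or more, and both passed in the genotype comparison and both CD44 steps. Of all genes tested, 26.7% passed for genotype, 40.1% for the step in Dusp2-/- and 26.1% for the step in WT. Ccl1, the CCR8 ligand, was at 28.3 and 30.9 FPKM in Dusp2-/- CD44hi against 20.5 and 17.2 FPKM in WT CD44hi, and at 2.42 FPKM in Dusp2-/- CD44lo against 0.539 FPKM in WT CD44lo. It was higher in CD44hi by 3.16 log2 units in Dusp2-/- and 3.68 in WT, as its receptor gene was by 0.76 and 0.93. Cxcl10, a CXCR3 ligand, had steps of -1.23 in Dusp2-/- and -1.36 in WT, opposite in sign to those of Cxcr3.

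Downstream of the receptors, 35 of 37 listed signalling genes were tested. In Dusp2-/- CD44hi 3 rose and 8 fell, against 12.9% and 13.8% of all genes tested, with a median of -0.045 against -0.018 over all genes. The falls with the smallest p were Rgs3 (-0.76, limma adjusted p = 0.00166) and Rgs10 (-0.88, 0.00257), regulators that shorten G protein signals, and Rassf5 (-0.54, 0.00282), which links RAP1 to integrins. In each genotype 6 were higher and 11 lower in CD44hi, against 23.6% and 16.5% of all genes in Dusp2-/- and 15.4% and 10.7% in WT, and Rgs1, another such regulator, had steps of 0.79 in Dusp2-/- and 0.77 in WT. The difference of the steps passed for 3, all higher, against 2.73% of all genes, Dock2 (0.76), Tln1 (0.70) and Prex1 (0.66), which act on RAC and integrins. Across genes this difference had a Spearman rho of 0.48 with gene length, and the part of length in these 3 calls was not tested.

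Of 15 transcription factors with known ties to these receptor genes or to T cell fate, 1 rose and 7 fell in Dusp2-/- CD44hi, against 12.9% and 13.8% of all genes tested. The rise was that of Tbx21, the gene of T-bet, at 42.4 and 38.2 FPKM in Dusp2-/- CD44hi, against 27.9 and 27.6 FPKM in WT CD44hi (0.52, limma adjusted p = 0.0052), while Cxcr3 was lower there. Tbx21 was at 37.5 FPKM in Dusp2-/- CD44lo, against 23.5 FPKM in WT CD44lo, where Cxcr3 was higher. Klf2, a factor of quiescent T cells, fell by 1.52 log2 units (limma adjusted p = 0.00154) and Id3 by 0.70 (0.00195). The CD44 steps had 3 higher and 4 lower in Dusp2-/- (23.6% and 16.5% of all genes) and 2 higher and 6 lower in WT (15.4% and 10.7%), and for the difference of the steps the smallest adjusted p was that of Klf2 (-0.87, limma adjusted p = 0.0762), which did not pass.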

How the data were processed

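RNA-seq values of 6 mouse libraries were used as the authors deposited them, in FPKM, in a table of 18122 rows whose value columns each matched 1 sample. The submitters' processing notes name the aligner HISAT2 2.0.5, and mm39 and hg38 appear there with no stated role. The counter, its use of strand and its annotation are not given in those notes or the labels. FPKM values were whole multiples of 1 read (16220 of 16220 rows above 0 in 2 or more libraries, within 1e-06 reads; 0 of 2000 perturbed rows). For 94.3% of rows with a matching symbol the steps fit merged exon lengths of GENCODE vM21 (GRCm38), which gave reads and lengths.

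The test was limma 3.58.1 (R 4.3.3) on log2(FPKM + 1) for genes averaging 1 FPKM or more, in a model of 4 group means with a variance trend and two-sided Benjamini-Hochberg p-values, called under 0.05. The CD44hi pairs alone supply its 2 residual degrees of freedom. It was tested on simulated data. Intervals of differences are 95% intervals of that fit. Alternatives were a pseudocount of 0.1, no filter, median-ratio scaling, totals rescaled to 1000000, limma voom on the reads, a loess trend on gene length taken out (span 0.5), a replicate block and each CD44hi library left out.

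All 8 members are named, with the 3 genes closest in pattern to a member above 5 FPKM and up to 3 genes per list with the smallest p. The members, lists and tests were chosen with earlier results of these data known. The labels name no batch. Some listed results are not reported here.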

Additional observations from a re-analysis of the deposited data

Results flagged for a closer look

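The CD44 step of Cxcr3 differed between genotypes by the test of the difference itself (Dusp2-/- minus WT -1.19 log2 units, limma adjusted p = 0.0323), with steps of 0.97 in Dusp2-/- and 2.16 in WT. The genotype difference of Cxcr3 was 0.78 in CD44lo, on 1 library per genotype, and -0.41 in CD44hi. The groups hold at most 2 libraries, too few to look for a single library far from the others.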

How the results depend on the processing

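The number of members called stayed within 1.5 times of that reported under pseudocount 0.1, median-ratio scaling and limma voom in all 4 comparisons. With no filter on low values, limma called 0 of 8 members for genotype in CD44hi (5 at an unadjusted p under 0.05), 3 for the step in Dusp2-/-, 1 for the step in WT and 0 for the difference of steps (3 at an unadjusted p under 0.05). With the length trend removed it called 0 for the difference of steps (2 at an unadjusted p under 0.05). On the filtered genes limma voom called 4 for genotype and 1 for the difference of steps. Cxcr5 is counted in the step counts here. Rescaled totals gave 2 for genotype and 4 for the step in Dusp2-/-; they moved the median of all genes to 0.18 for that step and to 0.13 for the difference of steps, against 0.048 and -0.0082. Leaving out single libraries moved the number of members called in all 4 comparisons, as it moved the number of all genes called. The order of the 4 comparisons below is genotype, Dusp2-/- step, WT step and difference of steps. The Cxcr3 difference of steps was -1.19 with no filter, -0.96 with the length trend removed and between -1.32 and -1.06 with single libraries left out.

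The replicate numbers are shared by the CD44hi groups without a stated link, and the pairs' deviations correlated by 0.0224 over 9691 genes. With the replicate block the members called were 6, 7, 6 and 3, and the Cxcr3 difference of steps was -1.19. The genes called rose with it to 3326, 4378, 2915 and 1565 of 9691, against 2586, 3888, 2527 and 409 as reported.

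Signs that reversed were of values near 0. With single libraries left out, Cxcr5 for genotype ranged from -0.10 (without WT CD44hi replicate 2) to 0.10 and was -0.065 without Dusp2-/- CD44hi replicate 1. Likewise the Cxcr4 step in WT ranged from -0.17 to 0.031, the Cxcr5 difference of steps from -0.19 to 0.015 and that of Ccr9 from -0.035 to 0.29. With the length trend removed the difference of steps was 0.082 for Ccr8 and -0.13 for Ccr9. The cause was not tested.

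Over all genes, the counts as reported were 2586 for genotype, 3888 and 2527 for the steps in Dusp2-/- and WT, and 409 for the difference of steps. They were 2, 2085, 1170 and 39 with no filter, and ranged from 1088 to 4092, 2524 to 5515, 2171 to 3825 and 346 to 3046 with single libraries left out. The difference of steps gave 137 genes with the length trend removed and 1565 with the replicate block. Depth limits Ccr2, Cxcr5 and Ccr8 in the shallow Dusp2-/- CD44lo library, with 0, 31 and 27 reads.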
